A study of Mus musculus with 9 samples.

Results

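Cold Ets1 sites were set against the acetylated chromatin of control adipocytes by position. The sites were the 14858 peaks of the Ets1 library from cold-stressed mice (CS). The acetylated chromatin was the 86834 peaks of the H3K27ac library from Flox mice. Together these were 101692 of the 454996 peaks in the 9 lists of the series, and 2 of its 9 libraries. An Ets1 peak counted as acetylated when at least 1 bp of it overlapped an H3K27ac peak, and 9555 of the 14858 did.

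CS Ets1 was profiled in wild type C57 mice after 7 days in the cold. Flox H3K27ac came from mice that carry floxed Ets1 without a Cre, the controls of an adipocyte Ets1 knockout driven by Adipoq-Cre (EAKO). In both, mature adipocytes that float after collagenase digestion were taken from the inguinal fat of male mice aged 8 to 10 weeks, and the profiles were made by CUT&Tag, in which an antibody brings a transposase to its target in nuclei. The labels give no housing temperature for Flox. Genotype and antibody differed between the 2 libraries, whether housing did is unknown, and these cannot be told apart. Each group had 1 library. No difference was therefore tested, no p-value is given, and the intervals printed are 95% Wilson intervals that cover counting error over peaks only. The other lists served only as overlaps: Ets1 at room temperature (RT), Ets1 in beige adipocytes differentiated in culture for 6 days from cells of mice aged 3 to 4 weeks, H3K27ac of EAKO, of an Ets1 knock-in driven by Adipoq-Cre (EA+/+) and of its controls (EC+/+), and ATAC of Flox and EAKO.

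Ets1 is a transcription factor of the ETS family, whose DNA-binding domain reads a GGAA core. H3K27ac is an acetyl group on lysine 27 of histone H3, written by the coactivators CBP and p300, and it marks nucleosomes beside active promoters and enhancers. Promoter acetylation is common to most expressed genes, whereas distal acetylation varies more between cell types. In mature adipocytes enhancers near lipid genes are well known to carry it, commonly with the nuclear receptor Pparg.

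Windows of 50 bases on each side of 8 summits show the kinds of site that the overlap separated. They are the plus strand of GRCm38 from RefSeq, the build of the lists. Capitals mark CCGGAAG (ETS), GGGCGG (SP/KLF, the letters read by Sp1 and its relatives) and TGANTCA (AP-1) on either strand. The first 5 are Ets1 summits at acetylated promoters, at chr5:110810207-110810307 (Ulk1), chr10:71238109-71238209 (Tfam), chr19:7217569-7217669 (Cox8a), chr4:140961133-140961233 (Sdhb) and chr19:53142552-53142652 (Add3). Ccdc6 is an Ets1 summit at a promoter without acetylation, at chr10:70096824-70096924. Ndst3 names an acetylated intergenic Ets1 summit at chr3:123508411-123508511, 51668 bp downstream of that gene's start. Cdc42bpb is the summit of a strong intronic H3K27ac peak without Ets1, at chr12:111353556-111353656. Ndst3 and Cdc42bpb were chosen for display after their values were seen.
Ulk1: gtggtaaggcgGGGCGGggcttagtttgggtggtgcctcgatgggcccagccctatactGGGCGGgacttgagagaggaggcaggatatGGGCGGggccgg
Tfam: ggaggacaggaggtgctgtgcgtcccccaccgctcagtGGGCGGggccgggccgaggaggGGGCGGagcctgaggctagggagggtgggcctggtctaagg
Cox8a: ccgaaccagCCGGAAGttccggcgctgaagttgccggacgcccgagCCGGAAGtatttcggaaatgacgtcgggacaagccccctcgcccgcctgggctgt
Sdhb: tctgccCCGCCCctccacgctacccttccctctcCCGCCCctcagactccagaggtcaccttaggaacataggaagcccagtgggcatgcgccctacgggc
Add3: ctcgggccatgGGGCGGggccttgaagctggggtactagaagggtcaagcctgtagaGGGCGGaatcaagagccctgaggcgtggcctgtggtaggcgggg
Ccdc6: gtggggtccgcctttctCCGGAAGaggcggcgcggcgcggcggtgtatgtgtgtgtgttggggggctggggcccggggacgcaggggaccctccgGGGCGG
Ndst3: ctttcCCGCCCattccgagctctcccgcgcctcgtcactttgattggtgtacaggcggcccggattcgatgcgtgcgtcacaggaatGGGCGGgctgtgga
Cdc42bpb: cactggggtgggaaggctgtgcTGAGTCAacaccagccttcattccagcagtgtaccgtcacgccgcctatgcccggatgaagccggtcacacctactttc
Cox8a held the ETS letters in 2 places and Ccdc6 in 1. Ulk1 held the SP/KLF letters 3 times, and Tfam, Sdhb, Add3 and Ndst3 held them 2 times each. Of the windows of equal length at 93459 protein-coding start sites, 5.27% held CCGGAAG, 20.3% held GGGCGG and 1.95% held TGANTCA.

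The adipocyte label was checked against promoter acetylation in the Flox list. Of 12 adipocyte marker genes, 7 had an H3K27ac peak at the promoter, with −log10 q between 2.64 at Fabp4 and 30.3 at Pparg. Adipoq, Plin1, Cidec, Cfd and Lep, which define adipocytes, had none. Of the markers of adipose stem and progenitor cells, 7 of 7 were acetylated at the promoter (3.29 at Pi16 to 28.2 at Cd34), as were 4 of 5 endothelial, 2 of 6 macrophage, 2 of 6 lymphocyte and 2 of 4 skeletal muscle markers. The promoter marks of this library therefore did not set adipocytes apart from progenitors. The part of other cells in the results below was not tested. Ets1 peaks lay at 3 of the 7 acetylated adipocyte markers (Pparg, Lpl and Lipe) and at 1 of the 7 progenitor markers (Cd34).

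Acetylation followed the place of an Ets1 peak in the gene. Over all peaks 64.3% were acetylated (63.5 to 65.1). At promoters, defined as 1 kb on each side of a protein-coding start site, it was 6374 of 6935 peaks, or 91.9% (91.2 to 92.5). In exons it was 185 of 462 (40%), in introns 1283 of 3006 (42.7%) and between genes 1713 of 4455 (38.5%). These last places are called distal from here on, and together 3181 of 7923 distal peaks were acetylated, or 40.1% (39.1 to 41.2). Promoters made up 66.7% of the acetylated Ets1 peaks and 10.6% of those without acetylation, while intergenic peaks made up 17.9% and 51.7%.

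**Figure D1:**
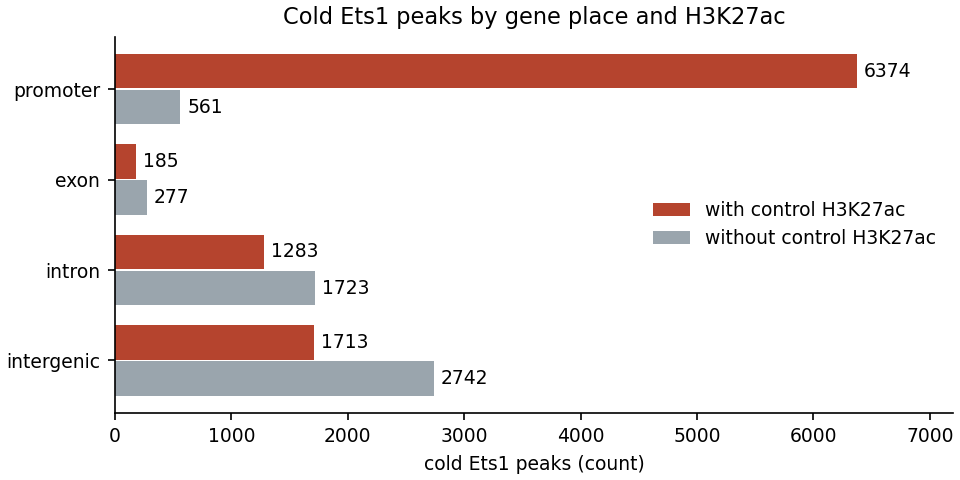
Cold Ets1 peaks counted by gene place (horizontal axis, number of peaks), with the upper bar for peaks that overlap control H3K27ac and the lower bar for peaks that do not. At promoters 6374 peaks had the mark and 561 did not, whereas in exons, introns and intergenic sequence the larger bar was the one without the mark.

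The acetylated share grew with the strength of the Ets1 peak. Ets1 peaks were ranked by −log10 q and cut into 10 deciles, decile 10 being the strongest with values of 9.68 and above. At promoters the share was 76.5% in decile 1 (71.7 to 80.7), 88.5% in decile 5 and 98.9% in decile 10 (98.1 to 99.4). Distal peaks lay lower in every decile, at 27.9% in decile 1 (25.4 to 30.6), 44% in decile 5 and 71.9% in decile 10 (67.1 to 76.3). Their shares did not climb at each step, with 24% in decile 2 and 32% in decile 4. Among Ets1 peaks with q under 0.001, 78.2% of all, 95.3% of promoter and 52.5% of distal peaks were acetylated.

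**Figure D2:**
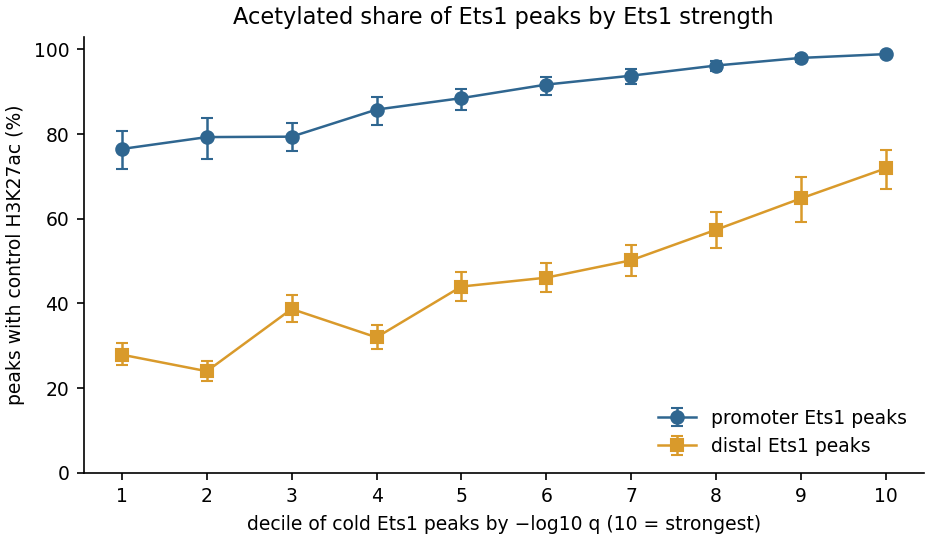
Share of cold Ets1 peaks that overlap control H3K27ac (vertical axis, percent) by decile of Ets1 −log10 q (horizontal axis), for promoter peaks (circles) and distal peaks (squares), with 95% Wilson intervals. Promoter peaks lie between 76.5% and 98.9%, and distal peaks between 24% and 71.9%.

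Acetylated and other Ets1 peaks also differed in form. At promoters the median −log10 q was 5.21 with acetylation and 2.87 without, the median width was 354 and 209 bp, and the median fold enrichment over local background was 5.22 and 4.19. The summit lay a median of 97 bp from the nearest start with acetylation and 289 bp without. Distal peaks differed less, with a median −log10 q of 3.54 with acetylation and 2.85 without, and a median width of 239 and 196 bp. Base composition differed too. At promoters median GC was 67.3% with acetylation and 60.4% without, and the ratio of observed to expected CpG was 0.798 and 0.421. In distal peaks GC was 55.4% with acetylation and 51.5% without, and that ratio was 0.141 and 0.136.

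Positions were compared within the overlapping peaks only. The overlap rule itself keeps the 2 marks near each other there, so the distances are descriptions. The Ets1 summit lay inside the strongest H3K27ac peak it overlapped in 94.5% of acetylated promoter peaks and 89.3% of acetylated distal peaks. The whole Ets1 peak lay inside in 74.9% and 57.1%. The median distance from the Ets1 summit to the nearest H3K27ac summit, of any H3K27ac peak, was 103 bp at promoters and 93 bp at distal sites. Of the 9555 acetylated Ets1 peaks, 9436 overlapped 1 H3K27ac peak, 118 overlapped 2 and 1 overlapped 3. Over peaks, the −log10 q of Ets1 and of H3K27ac went together weakly (Spearman rho 0.393 over 6374 promoter peaks and 0.307 over 3181 distal peaks), as a description of peaks that share their library and base composition.

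Many of the Ets1 peaks called without acetylation at promoters lay just beside it. Of 561, 187 (33.3%) were within 500 bp of an H3K27ac peak and 252 (44.9%) within 1000 bp, with a median gap of 1432 bp. Of 4742 distal peaks without acetylation, 429 (9.05%) were within 1000 bp, and the median gap was 9393 bp.

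Acetylated Ets1 promoter peaks were open and recurred in other lists, and those without acetylation mostly did not. With acetylation 97.4% overlapped a Flox ATAC peak, and without it 35.7%. Beige Ets1 overlapped 84.1% with acetylation and 21.9% without, and EC+/+ H3K27ac overlapped 80.6% and 18.2%. RT Ets1, a list of 4056 peaks, overlapped 10.3% and 3.92%. In adipocytes without Ets1 (EAKO), an H3K27ac peak was called at 92.4% of the Ets1 promoter peaks that were acetylated in Flox and at 12.3% of those that were not.

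Distal Ets1 peaks fell into an open and a closed set. With acetylation 1313 of 3181 (41.3%) were open in Flox ATAC, and without it 215 of 4742 (4.53%). The open acetylated peaks lay in strong H3K27ac, with a median H3K27ac −log10 q of 17.8, against 5.18 for the 1868 acetylated peaks outside ATAC. Beige Ets1 recurred at 57.7% of the open acetylated peaks and at 9.8% of the closed ones. CA repeats of at least 6 units lay within 50 bp of the summit in 2.82% of the open and 16.1% of the closed acetylated peaks. RT Ets1 peaks showed the reverse order to beige, at 12.3% of the open and 26.3% of the closed. The closed acetylated peaks therefore held more repeats, more RT Ets1 and weaker acetylation than the open ones. What these values have to do with each other was not tested. Start sites of genes that do not code for protein lay within 1 kb of 15.6% of the open and 4.44% of the closed acetylated peaks.

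The strongest Ets1 peaks recurred across libraries. Of the 100 strongest at promoters, 92 were acetylated in Flox, 92 were open in Flox ATAC and 79 were in the RT Ets1 list. Of the 100 strongest distal peaks, 67 were acetylated, 60 were open, 97 were in the RT list and 34 were in all 9 lists. The 6 strongest acetylated distal peaks outside predicted genes lay near Tcte2 (2 peaks, −log10 q 2917 and 956), Rpusd4 (1063), in Atrnl1 (831), and near Tcp10c (788) and Tmem196 (755), and each overlapped a peak in all of the other lists, except that the Tcp10c site had none in EAKO ATAC. Their H3K27ac −log10 q lay between 195 and 1486. Whether the authors removed regions of excess signal is not given in the sources used here. Leaving out the 1779 Ets1 peaks shared with RT gave 91.4% acetylated promoter peaks and 37% acetylated distal peaks, and keeping only Ets1 peaks in open chromatin gave 96.9% and 85.9%. Both of these settings were chosen after the data were seen.

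At promoters, predicted genes (Gm and Rik symbols) are passed over here and below. Of the strongest acetylated Ets1 peaks, Add3, an adducin of the membrane skeleton, had an Ets1 −log10 q of 53.7 over an H3K27ac peak of 120. Amz2, a metalloprotease, had 49.6 over 92.5. Carm1, an arginine methyltransferase that acts as a coactivator, had 43.2 over 88.1. The promoter between Chchd7 and Plag1 had 39.6 over 87.8, and that of Chd9, a chromatin remodeller, had 38.2 over 40.8. All 5 were in the RT, beige, ATAC and other H3K27ac lists as well. Sfi1, a centrosome gene, ranked after Add3 with 50.8 over 31.5, but its peak had a fold enrichment of only 4.46, against 12.4 to 13.9 at the other 5, and lay in neither the Flox ATAC nor the beige list, though it was in EAKO ATAC.

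Among promoters without acetylation the values were lower, apart from a narrow peak of 147 bp at Oasl1, an interferon-induced gene, with −log10 q 105 and no overlap with any other list. Then came a further Sfi1 peak (11.8), Tatdn2 (11.6), Ccdc6 (11.3), Map4k5 (10.4) and Mef2d (9.61). Tatdn2 was acetylated in EAKO and EA+/+, and Map4k5, a kinase of the stress pathways, in EC+/+ and EA+/+, so the absence in Flox did not hold for every H3K27ac library. Mef2d, a MADS-box factor, had beige Ets1 and open chromatin but was in none of the other 3 H3K27ac lists. Passing over predicted genes again, the distal peaks without acetylation in Flox were led by sites near Kcnh5 (185), Gtpbp4 (96) and Hnf4g (72). The Kcnh5 site was open and was acetylated in EC+/+ and EA+/+. The Gtpbp4 site was open and was acetylated in EAKO, EC+/+ and EA+/+. The Hnf4g site was in none of the H3K27ac or ATAC lists.

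Motifs at Ets1 summits differed by acetylation at promoters. The SP/KLF letters were found in 38.7% of windows with acetylation (37.5 to 39.9) and 22.5% without (19.2 to 26.1). The ETS letters were found in 5.66% (5.12 to 6.26) and 1.43% (0.724 to 2.79), beside 5.27% of all start-site windows. In distal windows ETS was found in 0.692% with acetylation and 0.38% without, and SP/KLF in 6.48% and 1.67%. The shorter GGAA core, looked at after the other motifs were seen, was in 59.2% and 52.2% of promoter windows and in 42.8% and 45.1% of distal windows, against 66.8% at start sites. A match is a description of the letters and not of a bound site.

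Seen from the acetylated regions, CS Ets1 peaks met promoters and distal regions at very different rates. Of 19189 promoter H3K27ac peaks 6267 had CS Ets1, or 32.7% (32 to 33.3). Of 67645 distal ones 3093 did, or 4.57% (4.42 to 4.73). H3K27ac peaks were cut into deciles by their own −log10 q, with decile 10 above 28.9. At promoters the share with Ets1 was 2.91% in decile 1 (1.98 to 4.26), 8.25% in decile 5, 21.1% in decile 8, 36.6% in decile 9 and 68.2% in decile 10 (67 to 69.4). At distal peaks it was 1.96% in decile 1 (1.67 to 2.29), 3.88% in decile 5, 5.73% in decile 8, 7.31% in decile 9 and 15.9% in decile 10 (14.6 to 17.3). The intervals of promoters and distal regions overlapped in deciles 1 to 4 and were apart from decile 5 upwards. Decile 10 held 5837 promoter peaks and 2847 distal peaks, so 1858 and 2394 of the most strongly acetylated regions had no CS Ets1 peak. Most of these had a beige Ets1 peak, at 79.6% of the promoter and 85.9% of the distal regions. With CS Ets1 the beige shares were 96.1% and 91.6%, so the wide gap between promoters and distal regions was not seen with the beige list.

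**Figure D3:**
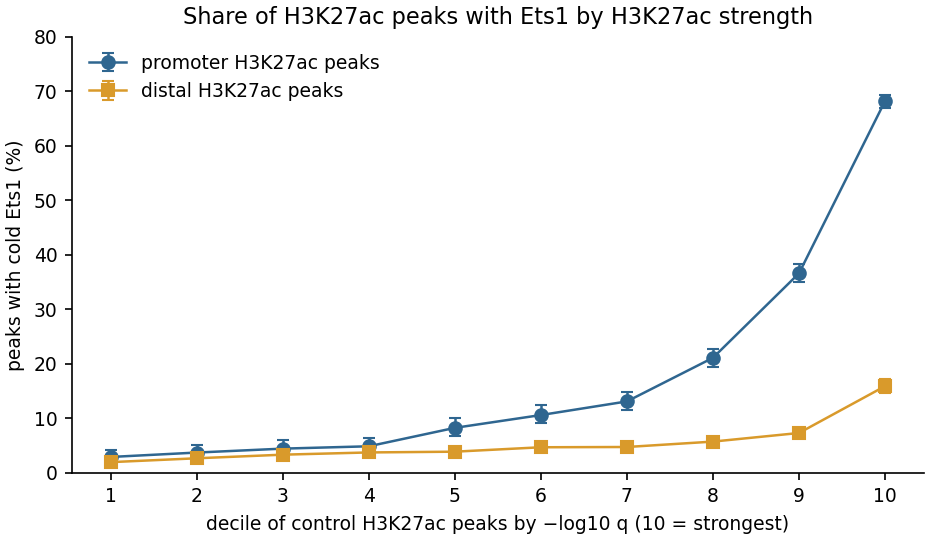
Share of control H3K27ac peaks that overlap a cold Ets1 peak (vertical axis, percent) by decile of H3K27ac −log10 q (horizontal axis), for promoter peaks (circles) and distal peaks (squares), with 95% Wilson intervals. Promoters climb to 68.2% in decile 10, and distal peaks to 15.9%.

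The distal value differed between the control lists, whose deciles are not like sets. EC+/+ held 33713 peaks and Flox 86834, and deciles were cut within each list by its own values. In the EC+/+ list, 410 of the 621 distal peaks of decile 10 had CS Ets1, or 66% (62.2 to 69.6), while promoters gave 69.6%. Of those 621 peaks, 268 (43.2%) also held an RT Ets1 peak and 367 (59.1%) were open in Flox ATAC. In Flox, 453 of 2847 distal peaks of decile 10 had CS Ets1. The 940 of them that were also called in EC+/+ had Ets1 at 40.1% (37 to 43.3), and the 1907 that were not had it at 3.99% (3.2 to 4.96). The EAKO list gave 16.1% at distal peaks and 67.5% at promoters.

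In decile 10 the regions with Ets1 were stronger and richer in CpG than those without. Promoter peaks had a median H3K27ac −log10 q of 54.8 with Ets1 and 40.7 without, a median width of 881 and 798 bp, and an observed to expected CpG of 0.824 and 0.76. Distal peaks had a median −log10 q of 47.9 and 38.4, GC of 60.4% and 54.5%, and CpG of 0.376 and 0.222. Flox ATAC overlapped 88.1% of the distal peaks with Ets1 and 99.7% of those without. RT Ets1 overlapped 30.5% and 0.376%, and beige Ets1 91.6% and 85.9%. Intergenic sequence held 65.1% of the distal peaks with Ets1 and 47.5% of those without, and introns 28.7% and 46.7%. Start sites of genes that are not protein-coding lay within 1 kb of 21.4% and 7.31%.

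The letters at those summits were compared in the same way. Here with and without Ets1 refer to the CS list only, since most regions in both sets had a beige Ets1 peak. AP-1 factors are dimers of the Fos and Jun families that occupy enhancers in many cell types. Their letters were found at 9.27% of the distal summits with Ets1 (6.93 to 12.3) and 31.5% of those without (29.7 to 33.4). SP/KLF letters ran the other way, at 21% with Ets1 (17.5 to 25) and 5.6% without (4.75 to 6.59). Promoter summits showed the same order for both, with AP-1 at 1.63% and 4.9%, and SP/KLF at 38.9% and 26.2%. ETS letters did not separate the promoters, at 7.82% with Ets1 (7.02 to 8.69) and 7.91% without (6.77 to 9.23). At distal summits ETS was found in 2.87% with Ets1 (1.68 to 4.85) and 1.17% without (0.81 to 1.69). CCAAT, the letters read by NF-Y, differed at promoters, at 15.5% with Ets1 (14.4 to 16.6) and 11.4% without (10 to 12.9), while the distal intervals overlapped (8.17% and 9.11%). CRE (TGACGTCA) and C/EBP (TTGCNNAA) letters were at 3.22% or less in each set. All start-site windows held CCAAT at 11.3%, CRE at 0.813% and C/EBP at 2.75%.

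**Figure D4:**
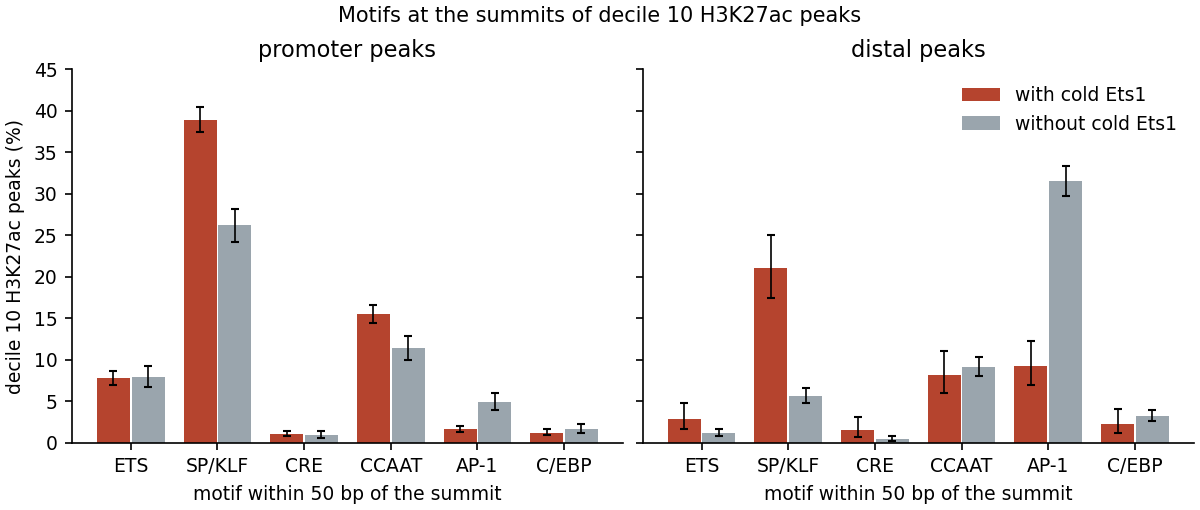
Share of decile 10 control H3K27ac peaks (vertical axis, percent) with each motif within 50 bp of the H3K27ac summit, for promoter peaks (left) and distal peaks (right), with cold Ets1 (red) and without it (grey); whiskers are 95% Wilson intervals. At distal peaks AP-1 letters are at 9.27% with Ets1 and 31.5% without, and SP/KLF letters at 21% and 5.6%.

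The AP-1 and SP/KLF order did not rest on the RT-shared places. Among the 315 distal decile 10 peaks with CS Ets1 and no RT Ets1, AP-1 was found in 13% (9.74 to 17.2), SP/KLF in 24.4% and open chromatin in 98.7%. Among the 138 that also held RT Ets1, the values were 0.725%, 13% and 63.8%, and CpG observed over expected was 0.0492, against 0.456. Within the peaks shared with EC+/+, AP-1 was found in 6.37% with Ets1 and 24.3% without. Within those absent from EC+/+ it was 23.7% of the 76 with Ets1 (15.5 to 34.4) and 33.7% of the 1831 without (31.6 to 35.9), where the intervals overlap.

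The strongest acetylated promoters with Ets1 were those of Cops5 and Cspp1, which share a promoter (H3K27ac −log10 q 362, Ets1 5.8). Srxn1, which repairs oxidised peroxiredoxins, had 310 with Ets1 at 3.82, and Hdac2, a histone deacetylase, had 300 with Ets1 at 18. Paxip1 followed with 285 and 10.4, the Nsun2 and Srd5a1 promoter with 273 and 12.8, and the Ddx54 and Rita1 promoter with 271 and 18.5. The strongest promoters without CS Ets1 were lower in H3K27ac: Tgfbrap1, which shares its promoter with AI597479, at 200, Zfp322a at 169, Ltv1 at 158, Stam at 151, Eif4enif1 at 149 and Rpl19, a ribosomal protein, at 147. All 6 had a beige Ets1 peak, open chromatin and H3K27ac in EC+/+ and EAKO. Among all decile 10 promoters, beige Ets1 was called at 96.1% of those with CS Ets1 and at 79.6% of those without.

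The strongest distal acetylated regions with Ets1 were the recurrent places named above and 1 near Cr2 (374, with Ets1 at 140). Limited to open regions without RT Ets1, a choice made after the values were seen, they lay near Tmem189 (178, with Ets1 at 2.69), Akain1 (136 and 2.55), Ccnl1 (134 and 10.8), Nanos3 (134 and 8.11) and Rps6ka1 (134 and 9.97), and in Camk2d (129 and 2.12). Without Ets1 the strongest were near Dync1h1 (142), Lgalsl (137) and Iqgap1 (129), and in Sh3pxd2a (130), Cdc42bpb (130) and Il1rl1 (129). Each of the 6 without CS Ets1 was open and had a beige Ets1 peak, none had an RT Ets1 peak, and 3 of them were called in EC+/+ H3K27ac.

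Counted by gene, 14015 of 21938 protein-coding genes had H3K27ac at a promoter and 7177 had CS Ets1. Of these, 7012 had both, 7003 had H3K27ac alone and 165 had Ets1 alone. Ets1 was thus at 50.0% of the acetylated genes, those with H3K27ac at a promoter. Each mark could lie at any start of the gene, and in 240 of the 7012 no promoter Ets1 peak overlapped H3K27ac. In the lists below these included Mafg, Hdac7, Nfib, Prkaca, Atg4a, Agpat2, Mgll and Psmd10, which are counted as having both. The share followed the decile of the strongest promoter H3K27ac peak, with 7.94% in decile 1, 46.2% in decile 9 and 73.1% in decile 10, and was 29.8% over deciles 1 to 9. The gene lists are read beside these 3 backgrounds of 50.0%, 73.1% and 29.8%, and genes with a common promoter share a peak. The median −log10 q was 5.37 for Ets1 over genes with Ets1 and 26.4 for H3K27ac over genes with H3K27ac.

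The genes taken here from the study's autophagy and mitochondrial sets had both marks, 10 of 10 and 6 of 6. Of these 16 promoters 14 were in decile 10. The study names further mitochondrial genes, among them Pink1, which had CS Ets1, and Nrf1 and Ppargc1a, which did not. The sets of 10 and 6 were chosen by the study with these very libraries in hand, so their counts lend no separate weight. Ulk1, which initiates autophagy as a kinase, had Ets1 at 17.1 (−log10 q) and H3K27ac at 49.4, and its partner Atg101 had 5.35 and 124. Of the proteases that trim Atg8 proteins, Atg4d had 12 and 111, and Atg4b had 6.79 and 16.8, in decile 9. Atg5, whose product is joined to Atg12, had 10.8 and 92.7.
Atg9a, a membrane scramblase, had 9.92 and 44.8, and Atg2a, a lipid transfer protein, had 3.77 and 35.7. The enzymes Atg10 and Atg3 had 5.56 with 54.7 and 5.66 with 45.8, and Atg16l2 had 5.59 with 49.8. The summits lay between 263 bp before and 567 bp after a start.

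Among the mitochondrial genes Tfam, which packages and transcribes mitochondrial DNA, had the strongest Ets1 peak at 13.2 over H3K27ac at 67.1. Sdhb of complex II had 9.29 and 39.9, Ndufv2 of complex I 8.56 and 37.4, and Uqcr10 of complex III 6.57 and 44.1. Atp5a1 of the ATP synthase had 6.96 over the weakest acetylation of the 6, at 22.4. Cox8a of complex IV had the weakest Ets1, at 4.61, and the strongest acetylation, at 102, and was the only member of either study list with CCGGAAG at its summit. All but Uqcr10 had a beige Ets1 peak too.

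Wider lists of the same pathways hold some of the genes that the study names. Core autophagy had Ets1 at 32 of 44 acetylated genes (72.7%), and at 25 of the 34 in decile 10 (73.5%, beside 73.1%). It holds all 10 of the autophagy genes above. Without them the counts were 22 of 34 (64.7%, 47.9 to 78.5) and, in decile 10, 16 of 25 (64%, 44.5 to 79.8). Wipi1, a phosphoinositide reader, was highest at 23.8. Wdr45b (78.4), Pik3r4 (60.8) and Wdr45 (57.4), all of autophagosome formation, were the strongest in H3K27ac without Ets1. Mitophagy and dynamics had 14 of 19 and 12 of 14, among them Mff (13.8), Pink1 (12.2) and Dnm1l (11.5). Mitochondrial biogenesis had 15 of 18 and 11 of 12, or 14 of 17 and 10 of 11 without Tfam, and was led by the nuclear receptor Esrra (25.7), Yy1 (16.5) and the ETS factor Gabpa (16.4). The coactivator Ppargc1a (H3K27ac 11.9) and the factor Nrf1 (7.91) were acetylated without Ets1.

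The respiratory chain was close to the background. Complex I had Ets1 at 20 of 36 acetylated genes (55.6%) and 15 of 23 in decile 10 (65.2%), led by Ndufs8 (13.1), with Ndufv1 (H3K27ac 69) and Ndufa7 (56.1) without it. Complexes II to V had 24 of 38 (63.2%) and 20 of 27 (74.1%), led by Uqcrq (18.9) and by Atp5j (16.4), which shares its promoter peak with Gabpa. Uqcrb (64.5) and Cox7a2 (63.6) were without. Leaving out the members of the study's mitochondrial set above gave 19 of 35 (54.3%) in complex I and 20 of 34 (58.8%) in complexes II to V. The mitochondrial ribosome had 50 of 78 (64.1%) and 40 of 48 (83.3%), led by Mrpl17 (21), and the cytosolic ribosome 50 of 80 (62.5%) and 38 of 56 (67.9%), led by Rpl27 (15). Proteasome genes had 33 of 46 (71.7%) and 27 of 36 (75%), led by Psma4 (14.6), and ubiquitin E1 and E2 enzymes 22 of 38 (57.9%) and 14 of 17 (82.4%), led by Uba6 (21.4).

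Genes of the adipocyte itself were spread over both classes. Adipogenic factors had Ets1 at 12 of 21 acetylated genes (57.1%), with the glucocorticoid receptor Nr3c1 (9.44) and Pparg (7.18) highest, while Rxra (H3K27ac 110), the partner of Pparg, Ebf1 (32.6) and Klf5 (23.1) had none. Lipid storage and release had 16 of 24 (66.7%), or 14 (58.3%) where the marks overlapped, led by Acsl1 (20.4), with the lipase Pnpla2 (28.1) without. In fatty acid synthesis 7 of 8 members in decile 10 had Ets1, led by Acss2 (20), Acaca (17.9), Fasn (7.85) and Acly (7.81), and 0 of 6 below it did. Insulin signalling had 18 of 22 (81.8%), led by Gsk3b (14.9). Below decile 10 it had 13 of 16, beside 29.8% of all genes in deciles 1 to 9 and 46.2% of those in decile 9. The median H3K27ac −log10 q of this list was 23, a decile 9 value, so the 29.8% is a low background for it. Of the fat hormones 7 of 12 were acetylated and Nampt alone had Ets1 (19.7).

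Among the lists with at least 10 acetylated members, the beta-adrenergic and thermogenic list had the lowest share apart from olfactory receptors. It joins genes of beta-adrenergic signalling to thermogenic genes, and is called the thermogenic list from here on. Ets1 was at 11 of 28 acetylated genes (39.3%, beside 50.0%). It was at 6 of 6 in decile 10 (beside 73.1%) and 5 of 22 below it (22.7%, beside 29.8%). The acetylation of this list was weak, with a median H3K27ac −log10 q of 10.5, against 26.4 over all acetylated genes. Over all genes the share with Ets1 was 20.7% in decile 7 and 29.9% in decile 8, so the low share is not particular to this list. For Prkaca, a catalytic subunit of protein kinase A in decile 10, the marks lay at different places. Prkar1a (9.7), a regulatory subunit of the same kinase, and Creb1 (9.28), its target, led the thermogenic list. Ucp1, the uncoupling protein of thermogenic fat, had weak H3K27ac at the promoter (3.43) and no Ets1, as did Prdm16 (4.28) and Adrb3 (7.82). Olfactory receptors had H3K27ac at 23 of 1123 genes and Ets1 at 11, and 3 of the 23 had both (13%).

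Regulators of chromatin and transcription had Ets1 at most of their members in decile 10, as did 73.1% of all genes there. For each list in this paragraph the counting interval of the decile 10 share included that background. Acetyltransferases and deacetylases had 21 of 32 (65.6%) and 14 of 16 in decile 10, with Brd2 (18), Hdac2 (18) and Hdac1 (12.2) high, the H3K27 acetyltransferases Crebbp (11.4) and Ep300 (4.25) among them, and Hdac3 (H3K27ac 76.8) without. ETS factors had 12 of 21 and 7 of 7, led by Elk4 (16.4), and the Ets1 gene itself had an Ets1 peak of 4.31 over H3K27ac of 49.6. Clock genes had 12 of 19 and 9 of 11, led by Tef (27.4) and Nr1d2 (19.6), while its relative Nr1d1 (H3K27ac 38.7) had none. AP-1 factors had 12 of 18 and 9 of 10, with Jund (17.9), Atf7 (13.7) and Jun (12.6) highest and Mafk (H3K27ac 45.4) without.

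**Figure D5:**
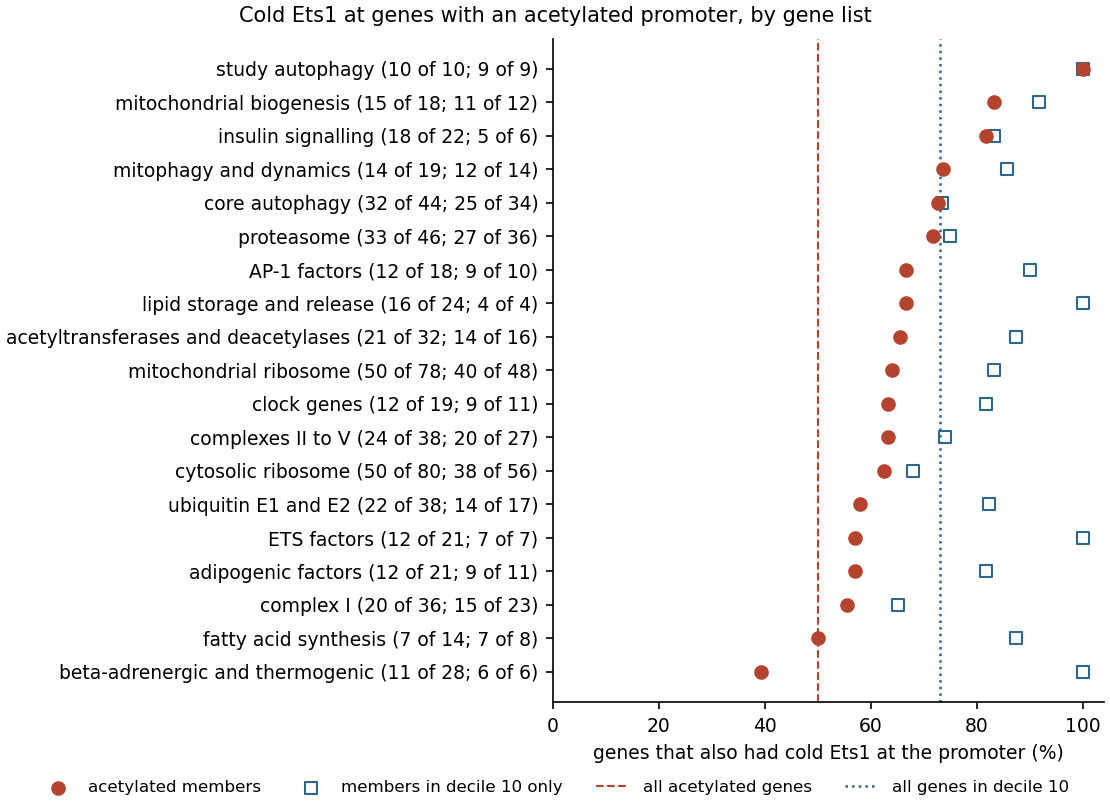
Share of genes with cold Ets1 at the promoter (horizontal axis, percent) for each list with at least 10 acetylated members other than olfactory receptors: circles for all acetylated members, squares for those in H3K27ac decile 10, with both counts in the labels. The dashed line marks 50.0% of all acetylated genes and the dotted line 73.1% of genes in decile 10. The beta-adrenergic and thermogenic list is at 39.3% and core autophagy at 72.7%.

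Distal acetylation near the listed genes held Ets1 at 0% to 10% of peaks, by list. Over all distal H3K27ac peaks 4.57% did, and over those of decile 10 15.9%. Peaks were given to the gene with the nearest start. Adipogenic factors had 309 distal peaks, 14 per gene, of which 12 (3.88%) held Ets1, and the adipocyte markers had 22, of which 0 did (interval 0% to 14.9%). In decile 10 the adipogenic factors had 5 of 17, at 2 sites each near Ebf2 and Klf4 and 1 near Nfia. The AP-1 factors had Ets1 at 7 of 70 distal peaks (10%, 4.93 to 19.2) and at 6 of 7 in decile 10, 2 near Fos (H3K27ac 102 and 32.2, with Ets1 11.1 and 2.35), 2 near Jun, and 1 each near Atf3 and Fosb. All 6 were open, and 1 of them held RT Ets1. Fatty acid synthesis had 5 of 54 (9.26%) and 4 of 5, near Scd2, Elovl5 and 2 in Me1, of which 3 held RT Ets1 and the Me1 sites were not open. The thermogenic list had 10 of 160 (6.25%) and 4 of 7, 1 each near Tmem26 and Ppara and the same 2 near Ebf2, all of them open and 1 with RT Ets1. ETS factors had 13 of 221 (5.88%) and 0 of 10.

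The X chromosome, single in these male mice, stood apart from the autosomes. Of its 118 Ets1 peaks 85.6% were acetylated (78.1 to 90.8). Among decile 10 promoter H3K27ac peaks, 47 of 120 on X had CS Ets1, or 39.2% (30.9 to 48.1), against 68.8% of 5716 on autosomes (67.6 to 70), which ran from 60.4% to 76.0%. The X peaks were weaker, with a median H3K27ac −log10 q of 38.8, against 49.3. Within the range from 30 to 40 the shares were 27.3% on X (17.3 to 40.2) and 53.4% on autosomes (50.9 to 55.9). Within 40 to 50 they were 45.8% (27.9 to 64.9) and 64.3% (61.5 to 67), where the intervals overlap. Within 50 to 70 they were 57.7% (38.9 to 74.5) and 74.5% (72.1 to 76.7). Above 70 they were 57.1% of only 7 on X (25 to 84.2) and 88.3% (86.5 to 89.9). Among all these decile 10 promoters, beige Ets1 was called at 90.8% on X and 90.9% on autosomes. RT Ets1 was called at 0% and 10.1%, and EC+/+ H3K27ac at 74.2% and 88.3%.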

How the data were processed

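The authors made CUT&Tag and ATAC libraries, mapped the reads to mm10, which is GRCm38, using BWA, and ran MACS2 on each library, keeping peaks with q under 0.05. SAMtools and deepTools are named as well in the submitters' processing notes. A control library for MACS2 and a mask for excess signal are not given in the sources used here. Each deposited list gives positions, a score, a fold enrichment as a linear ratio, the −log10 of the p-value and of the q-value, and the summit's offset. These deposited values depend on depth, which the lists do not hold, so they were used only within a list.

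Overlaps were counted with bedtools 2.31.1 and checked on simulated lists. Promoters were 1 kb on each side of 93513 start sites of 21938 protein-coding genes in GENCODE M21, and other peaks were exon, intron or intergenic in that order. Deciles were cut over the whole list. Windows of 50 bases on each side of summits came from GRCm38.p6. Shares carry Wilson 95% intervals (scipy 1.17.1) for counting error only. The members, the 28 gene lists and the motifs were chosen with earlier results of these data known. Named sites were the strongest of each class outside predicted genes (Gm and Rik symbols), all genes of the 2 study lists, and in other lists the members strongest in Ets1, or in H3K27ac without Ets1. A site among the strongest distal Ets1 peaks is not reported here. A few, said in place, were picked after their values were seen. No other per-sample columns were present.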

Additional observations from a re-analysis of the deposited data

How the results depend on the processing

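The promoter share stayed above the distal share at Ets1 peaks and at decile 10 H3K27ac peaks in every setting tried. In EC+/+ decile 10 the gap was small and the intervals overlapped, at 69.6% (67.9 to 71.3) for promoters and 66% (62.2 to 69.6) for distal peaks. Of 61 values, 39 moved outside the counting interval of the main value. The other 22 stayed within it or, for genes, moved by less than 1.5 times. Acetylated shares of all, promoter and distal Ets1 peaks, in that order, were 59.8%, 87.2% and 35.9% with the Ets1 summit inside an H3K27ac peak, and 59.7%, 86.6% and 36.2% with at least 50% of the Ets1 peak inside. They were 78.2%, 95.3% and 52.5% with Ets1 q under 0.001, and 61.8%, 91.2% and 36.1% with H3K27ac q under 0.001. The EC+/+ list gave 49.6%, 75.5% and 26.9%, and the EAKO list 59.2%, 85.9% and 35.7%. A promoter of 3 kb on each side gave 87.7% at promoters, and leaving out CA repeats and −log10 q over 1000 gave 65.8% of all peaks. Among settings chosen after the data were seen, leaving out Ets1 peaks shared with RT gave 63% of all and 37% of distal peaks, and keeping only peaks in Flox ATAC gave 94.8%, 96.9% and 85.9%.

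Decile 10 H3K27ac promoters had Ets1 at 66.7% with the summit rule, 66.5% with the 50% rule, 59.8% with Ets1 q under 0.001, 71.5% with H3K27ac q under 0.001, 66.2% with 3 kb promoters, 69.6% in EC+/+, 84.9% with deciles cut within promoters and 59.1% without RT-shared Ets1. For distal decile 10 peaks the values were 12.8% with Ets1 q under 0.001, 17.9% with H3K27ac q under 0.001, 66% in EC+/+, 11.2% with deciles cut within distal peaks, 11.2% without RT-shared Ets1 and 13.9% with open Ets1 only. The causes were not tested. Genes with both marks numbered between 5767 and 7533. They numbered 6772 when a promoter Ets1 peak had to overlap H3K27ac, a setting also chosen after the data were seen. The summit and 50% rules were not applied to that count. No paired analysis was possible because each group had 1 library. The paper's supplement gives read totals of similar size for the CS and RT Ets1 and the Flox, EC+/+ and EAKO H3K27ac libraries. Its total for beige Ets1 is higher. Read counts per peak were not at hand, so what depth adds to a peak's presence or absence was not tested. A missing peak does not show a missing mark.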
